A study of Ovis aries with 2 samples.

Results

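The barcodes described here are the shallow barcodes of the post-processed sheep cortex library, those in which at least 100 and fewer than 500 genes were detected, a gene counting as detected when at least 1 unique molecular identifier (UMI) was assigned to it. They number 266 of the 905 barcodes of that library, or 29.4%, and the series holds 3030 barcodes in all. The number of detected genes was the sole criterion, so cell type markers played no part in the choice. They are compared with the 228 barcodes of the same library that had at least 500 genes, called deep barcodes below. Depth itself, and all that follows from it directly, is therefore a description of the choice and not a result.

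The series profiled nuclear RNA of the cerebral cortex by droplet-based single-nucleus sequencing in 2 libraries, to ask how tissue processing affects the makeup of neural cell types. The pre-processed library came from nuclei isolated straight from dissected cortex. The post-processed library came from cortex taken through debris and red blood cell removal before nuclei were isolated. Both came from a wildtype adult female Rambouillet sheep, of an age given as 18 to 36 months, with no treatment in life, and both carry the same batch label. The series description speaks of 1 animal and about 5000 nuclei captured per condition. For the post-processed library the treatment label says that no debris or red cells were removed, against its title, and the groups here follow the titles. With 1 library per condition there is no replicate and no test, and every interval given is a 95% interval that covers counting error only.

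In single-nucleus data a shallow barcode can hold a nucleus that gave little RNA, a broken nucleus, or an empty droplet with free RNA, and the count of genes does not tell these apart. The cortex holds neurons and several glial types. Microglia are the resident immune cells of the brain and carry the purinergic receptor P2RY12 and the receptor CSF1R, and oligodendrocytes make myelin. Handling of brain tissue is known to induce immediate early genes such as FOS and JUN in microglia, and heat shock genes encode chaperones made in response to unfolded protein.

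The shallow barcodes were small contributors to the library. They held 86811 UMIs, or 10.9% of its total, against 678397 UMIs or 85.4% in the deep barcodes and 28995 UMIs or 3.65% in the 411 barcodes under 100 genes. A shallow barcode had between 111 and 797 UMIs, with a median of 264.5, and a median of 204.5 genes. A deep barcode had a median of 2039.5 UMIs, between 744 and 24968, and a median of 912 genes. The median number of UMIs per detected gene was 1.30 in the shallow and 2.25 in the deep barcodes. Numbers of UMIs and genes ran on without a gap at both limits. The 21 barcodes up to 5 genes below the lower limit had 103 to 133 UMIs, and the first 13 above it had 111 to 159. The 3 barcodes up to 10 genes below the upper limit had 665 to 797 UMIs, and the first 2 above it had 754 and 839.

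**Figure D1:**
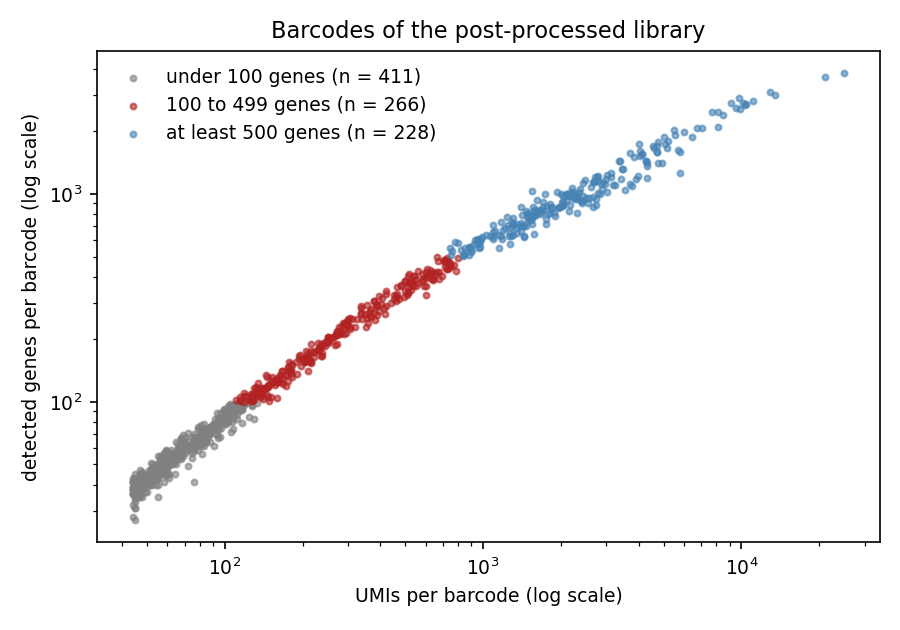
Each point is 1 barcode of the post-processed library, with its UMIs on the x axis and its detected genes on the y axis, both on log scales. Grey, red and blue mark the 411 barcodes under 100 genes, the 266 from 100 to under 500 and the 228 with at least 500, which form 1 continuous band.

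No barcode sequence occurred in both libraries. In 13 of the 266 shallow barcodes the sequence lay 1 or 2 bases from that of a deep barcode, and 8 of these 13 were led by the same marker list as that neighbour. All other shallow barcodes lay at least 7 bases away. Without the 13, the list differences below kept their direction, at 0.40 instead of 0.38 on the log2 scale for microglia and 0.80 instead of 0.77 for the immediate early genes.

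The genes proposed as marks of these barcodes, THBS1, GNLY, SAMSN1, LAPTM5, FOS and HSPA6, were chosen on these data, so their values are a description. Levels are given as counts per 1000000 UMIs (CPM) over the sum of barcodes, and differences as log2 of the ratio of CPM with 0.5 counts added. The matrices as used here list 46.2% of the protein-coding genes, which lie on chromosomes 1 to 8 and on some of chromosome 9, and CPM refers to these genes alone.

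FOS, a subunit of an immediate early transcription factor, was the most abundant of the 6. It had 310 UMIs in 125 shallow barcodes and 1386 UMIs in 159 deep barcodes, which is 3571 against 2043 CPM and a log2 ratio of 0.81 (0.62 to 0.98). LAPTM5, a lysosomal membrane protein of blood-lineage cells, had 76 and 412 UMIs, or 875 against 607 CPM, a log2 ratio of 0.54 (0.15 to 0.88). HSPA6, a heat-inducible chaperone, had 48 and 200 UMIs, or 553 against 295 CPM, a log2 ratio of 0.92 (0.42 to 1.37). HSPA6 has near-identical relatives, between which counting can split or misplace reads, so its level is uncertain. SAMSN1, an adaptor protein of blood-lineage cells, had 42 UMIs in 13 shallow barcodes and 104 UMIs in 24 deep ones, of which 35 lay in 1 barcode, and its log2 ratio was 1.67 (1.10 to 2.19). These 4 genes were spread over 13 to 125 shallow barcodes. When all 266 shallow barcodes, of every leading list, were set against microglia-led deep barcodes alone, which are unlike groups, the ratios were 0.08 for FOS, -0.20 for LAPTM5, 0.22 for HSPA6 and 0.62 for SAMSN1. With microglia-led barcodes on both sides, the 6 genes together had 353 and 1649 UMIs, 0.651% against 0.528%, a log2 ratio of 0.30 (0.13 to 0.47).

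THBS1 and GNLY did not mark the shallow barcodes as a population. THBS1, which encodes the secreted matrix protein thrombospondin, had 34 UMIs, but in 7 barcodes only, and 26 of the 34 lay in 1 of them. No UMI of THBS1 was found in the deep barcodes, and its CPM of 392 was 88.6-fold that of a floor of 3 counts over all deep barcodes. The interval of its log2 ratio began at 6.09, which is below that fold. Without the richest barcode 8 UMIs remain. GNLY, which encodes a granule protein of cytotoxic lymphocytes, had 1 UMI in the shallow barcodes and 31 in the deep ones, 28 of them in a single barcode, and its log2 ratio of -1.43 had an interval of -7.34 to 0.60.

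The cell type makeup was read from marker lists. Of 25 microglia markers 12 were listed in the matrices, and of 24 oligodendrocyte markers 11. The 104 listed markers of all types made 2.59% of the UMIs of the shallow barcodes and 2.59% of those of the deep barcodes, so the lists see a small part of the RNA. Microglia markers took 1092 UMIs, or 1.26% (1.18 to 1.33%), of the RNA of the shallow barcodes and 0.970% of the deep ones, a log2 ratio of 0.38 (0.28 to 0.47). Oligodendrocyte markers took 598 UMIs, or 0.689% (0.635 to 0.746%), against 1.06%, a log2 ratio of -0.62 (-0.74 to -0.50). Microglia markers were thus the most abundant cell type list in the shallow barcodes, while in the deep barcodes oligodendrocyte markers took the larger share. The sums weigh the deepest barcodes most. When every barcode weighs the same, the log2 ratios were 0.18 for microglia and -0.14 for oligodendrocyte markers.

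For single barcodes, the list with the most UMIs was taken as leading, with at least 2 UMIs and more than any other list. Microglia markers led 142 of the 266 shallow barcodes, or 53.4% (47.2 to 59.5%), and 125 of the 228 deep ones, or 54.8%. Oligodendrocyte markers led 61, or 22.9% (18.0 to 28.5%), against 76, or 33.3%. Endothelial markers led 9 shallow and 19 deep barcodes, mural markers 5 and 6, and 34 shallow barcodes, 12.8%, had too few marker UMIs to be led by any list, against 0 deep ones. A further 11 shallow barcodes and 1 deep barcode were tied between lists and so had no leading list either. The median depth was 264.5 UMIs in the shallow and 2039.5 in the deep barcodes, so both were thinned to 100 UMIs each, which every barcode of both sets reached. Microglia markers then led 27.4% of the shallow (22.2 to 33.2%) and 28.5% of the deep barcodes (22.7 to 34.8%), and oligodendrocyte markers 17.7% and 18.0%. At equal depth the leading lists took shares that differed by less than the counting error. Too few marker UMIs for a leading list were left in 46.2% and 43.9% of barcodes, and 5 and 3 barcodes were tied.

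**Figure D2:**
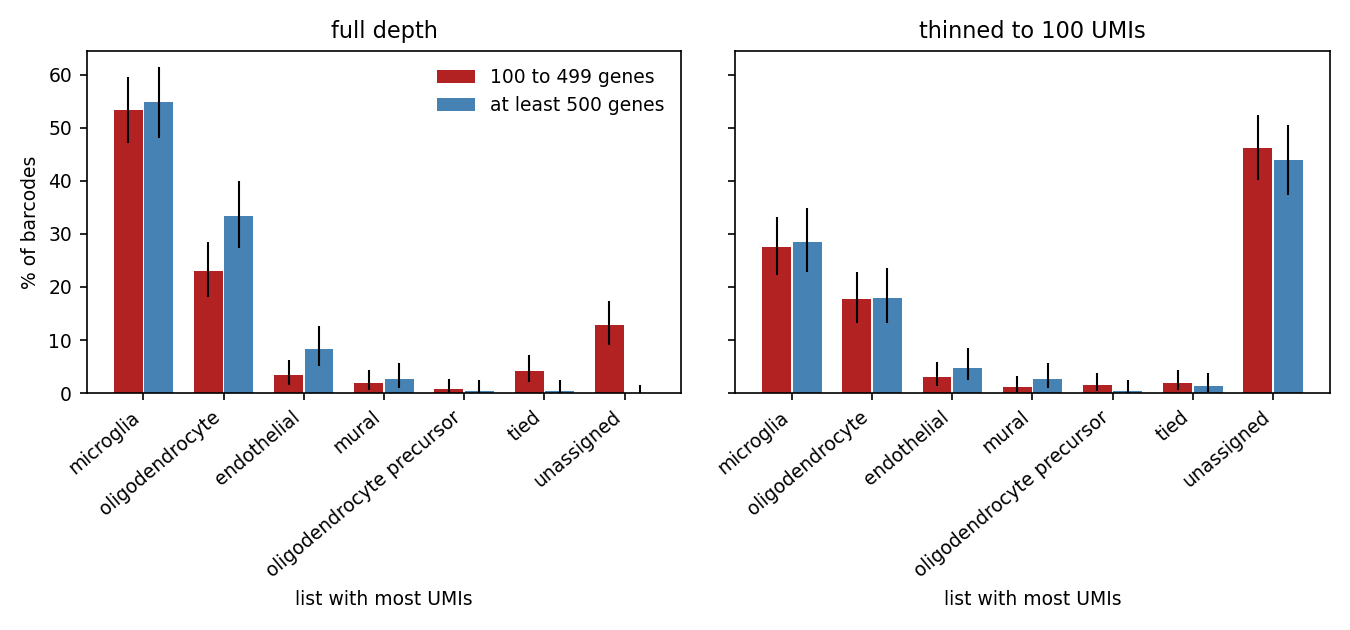
Bars give the percent of barcodes led by each marker list, for 266 barcodes from 100 to under 500 genes in red and 228 with at least 500 genes in blue, with exact 95% intervals, at full depth and after thinning each barcode to 100 UMIs. At full depth 12.8% of the shallow barcodes have too few marker UMIs for a leading list. After thinning both sets look alike, with microglia markers leading 27.4% and 28.5%.

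All 12 listed microglia genes could be compared, that is, reached a mean of 100 CPM over both sums. Of these, 1 was at least 2-fold higher in the shallow barcodes and 0 were 2-fold lower, and their median log2 ratio was 0.42. Over all 2153 genes compared, 135 or 6.27% were at least 2-fold higher and 78 or 3.62% at least 2-fold lower, with a median log2 ratio of 0.14. Differences are read against that shift of 0.14. The median of the microglia genes lay above it, while their share past 2-fold, 1 of 12, was near that of all genes. When the ratios were scaled to the median gene instead, 85 genes were 2-fold higher and 124 lower, so the balance of higher and lower calls turned with the scale.

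INPP5D, a lipid phosphatase of immune cells, had 276 UMIs in 132 shallow barcodes and 1727 UMIs in 168 deep ones, which is 3179 against 2546 CPM and a log2 ratio of 0.32 (0.13 to 0.50). The receptor gene P2RY12 had 197 and 1111 UMIs, or 2269 against 1638 CPM, with a log2 ratio of 0.47 (0.24 to 0.69). CSF1R had 106 and 564 UMIs and a log2 ratio of 0.56 (0.24 to 0.86). All 3 are well-known microglial genes, and they were detected in many shallow barcodes, 132, 100 and 68. IKZF1, a transcription factor of blood-lineage cells, had a log2 ratio of 0.58 (0.23 to 0.91), and DOCK8, a regulator of the immune cell skeleton, 0.14 (-0.12 to 0.39). The complement gene C1QA had 22 UMIs against 93 and a log2 ratio of 0.91 (0.14 to 1.57), while its partners C1QB at -0.01 and C1QC at 0.25 were nearer 0. P2RY13 had 17 and 66 UMIs and was the 1 gene of the list past 2-fold, at 1.04 (0.15 to 1.80).

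At 100 UMIs per barcode, INPP5D was seen in 21.8% of shallow (17.0 to 27.3%) and 20.6% of deep barcodes, P2RY12 in 15.8% and 18.4%, and CSF1R in 9.77% and 10.1%. Unthinned, the shares were 49.6% and 73.7% for INPP5D and 37.6% and 62.3% for P2RY12. Barcodes led by oligodendrocyte markers, with the leading list taken without the gene itself, should lack these genes. There, at 100 UMIs, INPP5D was seen in 14.3% of the shallow and 8.86% of the deep barcodes, and P2RY12 in 11.8% of the shallow and in 8 of 80 of the deep ones. The median depths of these barcodes were 237.5 UMIs for the shallow and 2906 and 2865.5 for the deep ones. Leaving the gene out moves only barcodes that carry it into this group. The group grew from 61 to 70 shallow and from 76 to 79 deep barcodes for INPP5D, and to 68 and 80 for P2RY12. Part of these shares thus came from the method, and no order between the sets is read from them. With whole lists and full depth, 34 of 61 oligodendrocyte-led shallow barcodes had a microglia marker UMI. Microglial genes were thus also seen in barcodes led by another type in both sets.

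**Figure D3:**
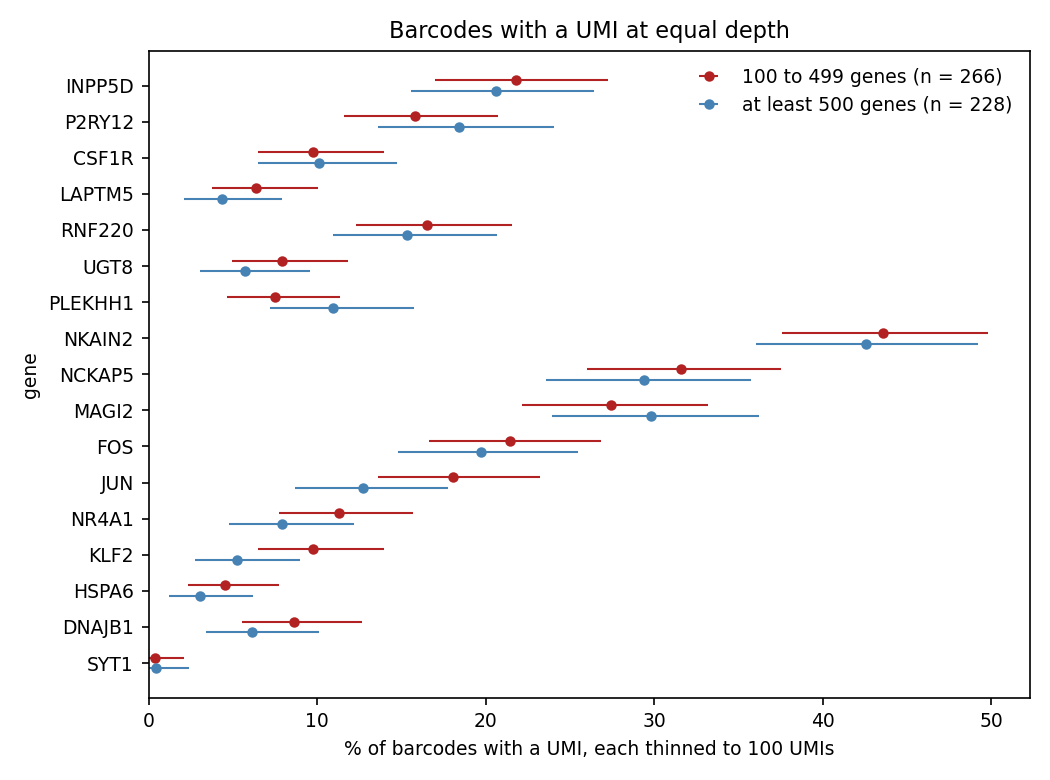
Points give the percent of barcodes with at least 1 UMI of a gene after thinning each barcode to 100 UMIs, in red for 266 barcodes from 100 to under 500 genes and in blue for 228 with at least 500, with exact 95% intervals. The intervals of both sets overlap for every gene drawn, as for FOS at 21.4% and 19.7%.

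The 11 listed oligodendrocyte genes all reached the minimum, with a median log2 ratio of -0.58. Of them 0 were 2-fold higher or lower, against 6.27% and 3.62% of all genes, and with 11 genes 0 is near those shares. RNF220, a ubiquitin ligase, had 155 UMIs in 81 shallow barcodes and 2263 UMIs in 122 deep ones, 1785 against 3336 CPM, with a log2 ratio of -0.90 (-1.15 to -0.67). UGT8, the enzyme that makes the myelin lipid galactosylceramide, had 61 and 798 UMIs and a log2 ratio of -0.73 (-1.14 to -0.37). The transcription factor gene ST18 stood at -0.28 (-0.68 to 0.08). The choline transporter gene SLC44A1 stood at -0.76 (-1.18 to -0.39) and PLEKHH1 at -0.81 (-1.21 to -0.46). CERCAM stood at -0.81 and LPAR1 at -0.58, while TF, HAPLN2, ERMN and CLDN11 lay between -0.08 and 0.05. With barcodes weighed equally the ratio of RNF220 was -0.16 and that of UGT8 -0.32, so the difference was smaller where the deepest barcodes did not weigh most. At 100 UMIs, RNF220 was seen in 16.5% and 15.4% of barcodes, and UGT8 in 7.89% and 5.70%.

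Genes of 2 cell types often met in 1 barcode. At full depth 131 shallow barcodes, 49.2%, had UMIs of both microglia and oligodendrocyte markers, 84 of microglia markers alone, 39 of oligodendrocyte markers alone, and 12 of neither. Thinned to 100 UMIs, 65 of 266 or 24.4% of the shallow barcodes (19.4 to 30.1%) and 36 of 228 or 15.8% of the deep ones (11.3 to 21.2%) had both. The share was higher in the shallow barcodes and the intervals overlap. No doublet caller was run on barcodes this shallow, and the part of doublets in this overlap was not tested.

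NCKAP5 was seen in a larger share of oligodendrocyte-led than of microglia-led barcodes in both sets. It had 410 UMIs in the shallow barcodes, 4723 against 8695 CPM in the deep ones, and was seen at 100 UMIs in 68.9% of oligodendrocyte-led shallow barcodes and 80.3% of oligodendrocyte-led deep ones. In microglia-led barcodes it was seen in 15.5% of the shallow (9.97 to 22.5%) and 3.20% of the deep ones (0.879 to 7.99%). The unthinned shares were 30.3% and 27.2%, at median depths of 353 and 1608 UMIs. Since a leading list is less certain at low depth, the leading list was also taken at 100 UMIs in both sets. NCKAP5 was then seen in 12 of 73 microglia-led shallow barcodes, 16.4% (8.79 to 27.0%), and in 3 of 65 deep ones, 4.62% (0.962 to 12.9%), and these intervals overlap. NKAIN2, a sodium pump-interacting protein, had the most UMIs of all genes in the shallow barcodes, 506. At 100 UMIs it was seen in 32.4% of microglia-led shallow and 27.2% of microglia-led deep barcodes. With the leading list also taken at 100 UMIs, the shares were 32.9% and 35.4%, with overlapping intervals. No order between the sets is read for NKAIN2.

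Markers of the other types were sparse. Oligodendrocyte precursor markers took 92 UMIs, 0.106% of the RNA against 0.0935%, of which LHFPL3 gave 55. Astrocyte markers took 45 UMIs, 0.0518% (0.0378 to 0.0694%) against 0.0377%, of which NDRG2 gave 18 and the bicarbonate transporter gene SLC4A4 13. Endothelial markers took 150 UMIs, 0.173% against 0.141%, a log2 ratio of 0.30 (0.04 to 0.54), led by the efflux pump gene ABCB1 with 32 UMIs and the glucose transporter gene SLC2A1 with 30. Mural markers took 98 UMIs, 0.113% against 0.134%, and fibroblast markers 54, of which 46 were of the collagen gene COL1A2. Of 69 B lymphocyte marker UMIs, 65 were of BANK1, in 42 barcodes. Granulocyte and monocyte markers took 2 UMIs, 0 of them from S100A8 or S100A9, and the platelet gene PPBP had 0. The single listed erythroid gene, SLC25A37, had 16 UMIs.

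Neuron markers were nearly absent from the shallow barcodes. The list of 15 genes had 12 UMIs, 0.0138% (0.00714 to 0.0241%), against 0.0162% in the deep barcodes. SYT1, a synaptic vesicle protein, had 2 UMIs or 23.0 CPM, against 7338 CPM in the pre-processed library, and the kinase gene CAMK2A had 2 UMIs. Neuron markers led 0 of the 266 shallow barcodes, for which the exact interval reaches 1.38% and a limit of 3 counts 1.13%. Of the 266, 34 shallow barcodes had too few marker UMIs for a leading list and 11 were tied. In bulk sums such as these, fewer nuclei of a type and less RNA per nucleus cannot be told apart.

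The pre-processed library had 4 barcodes in the same range of genes, with 435 to 467 genes and 934 to 1043 UMIs. Neuron markers made 5.51% of their UMIs, all 4 were led by neuron markers, and immediate early genes had 0 UMIs. So the same range of genes held different RNA in the 2 libraries, at a depth above that of any shallow post-processed barcode, and with 4 barcodes on one side.

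A few single barcodes carried most of the UMIs of a gene, and they were singled out after their values were seen. The barcode richest in THBS1 had 528 UMIs and 344 genes, with 26 UMIs of THBS1, 15 of the matrix proteoglycan gene VCAN, 11 of the growth factor gene AREG and 6 of NR4A1. It was led by the oligodendrocyte precursor list through VCAN alone, and had 7 UMIs of microglia markers and 0 of granulocyte and monocyte markers. A second barcode, with 771 UMIs and 457 genes, held 12 of the 24 UMIs of T and NK lymphocyte markers, 6 of them of CD2, a surface receptor of T cells. It also had 20 UMIs of TAFA2, 11 of the lymphocyte activation gene CD69 and 9 of SCML4. The T and NK list, at 0.0276% of UMIs against 0.0131% and a log2 ratio of 1.10 (0.36 to 1.74), thus rested for 12 of its 24 UMIs on 1 barcode. Another barcode, with 416 UMIs, was the 1 shallow barcode led by astrocyte markers, with 4 UMIs of SLC4A4 and 1 of FGFR3.

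Stress genes took 1.72% of the RNA of the shallow barcodes, against 1.13% in the deep barcodes and 0.108% in the pre-processed library, over 47 listed genes. The pre-processed library held other cell types, with 66.3% of its barcodes led by neuron markers and 2.82% by microglia markers, against 53.4% led by microglia markers here. The part of cell type in the gap between the libraries was not tested. Immediate early genes made the larger part. They had 964 UMIs in the shallow barcodes, 1.11% (1.04 to 1.18%) against 0.652%, a log2 ratio of 0.77 (0.67 to 0.87). Of 11 such genes that could be compared, 3 were at least 2-fold higher and 0 lower, against 6.27% of all genes higher, and their median log2 ratio was 0.76. A UMI of the list was found in 196 of the 266 shallow barcodes, and its share ran from 0 to 5.18% with a median of 0.741%.

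JUN, the partner of FOS, had 207 UMIs in 103 shallow barcodes and 926 in 144 deep ones, 2384 against 1365 CPM, with a log2 ratio of 0.81 (0.58 to 1.02). The nuclear receptor gene NR4A1 had 164 and 616 UMIs, 1889 against 908 CPM, and a ratio of 1.06 (0.80 to 1.31). The transcription factor gene KLF2 had 77 and 282 UMIs, 887 against 416 CPM, and 1.10 (0.71 to 1.46). IER2 had 28 and 79 UMIs and the largest ratio of the list, 1.49 (0.79 to 2.11), and was named after its value was seen. Others stood nearer 0, with JUND at 0.32 (-0.19 to 0.77), NR4A2 at 0.18 (-0.47 to 0.73), EGR3 at 0.13 and NR4A3 at -0.36 (-1.18 to 0.31). Genes of the list thus differed among themselves.

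Shares of barcodes told less of a difference than CPM. Thinned to 100 UMIs, FOS was seen in 21.4% of shallow (16.7 to 26.9%) and 19.7% of deep barcodes (14.8 to 25.5%), and unthinned in 47.0% and 69.7%. JUN was seen in 18.0% and 12.7%, NR4A1 in 11.3% and 7.89%, and KLF2 in 9.77% and 5.26%, with overlapping intervals for all 4 genes. FOS followed the leading list in both sets. At 100 UMIs it was seen in 27.5% of microglia-led and 3.28% of oligodendrocyte-led shallow barcodes, at median depths of 353 and 236 UMIs, and in 30.4% and 3.95% of the deep ones. With the leading list itself taken at 100 UMIs, FOS was seen in 27.4% of microglia-led and 8.51% of oligodendrocyte-led shallow barcodes. No order between the shallow and deep barcodes is read from these shares.

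**Figure D4:**
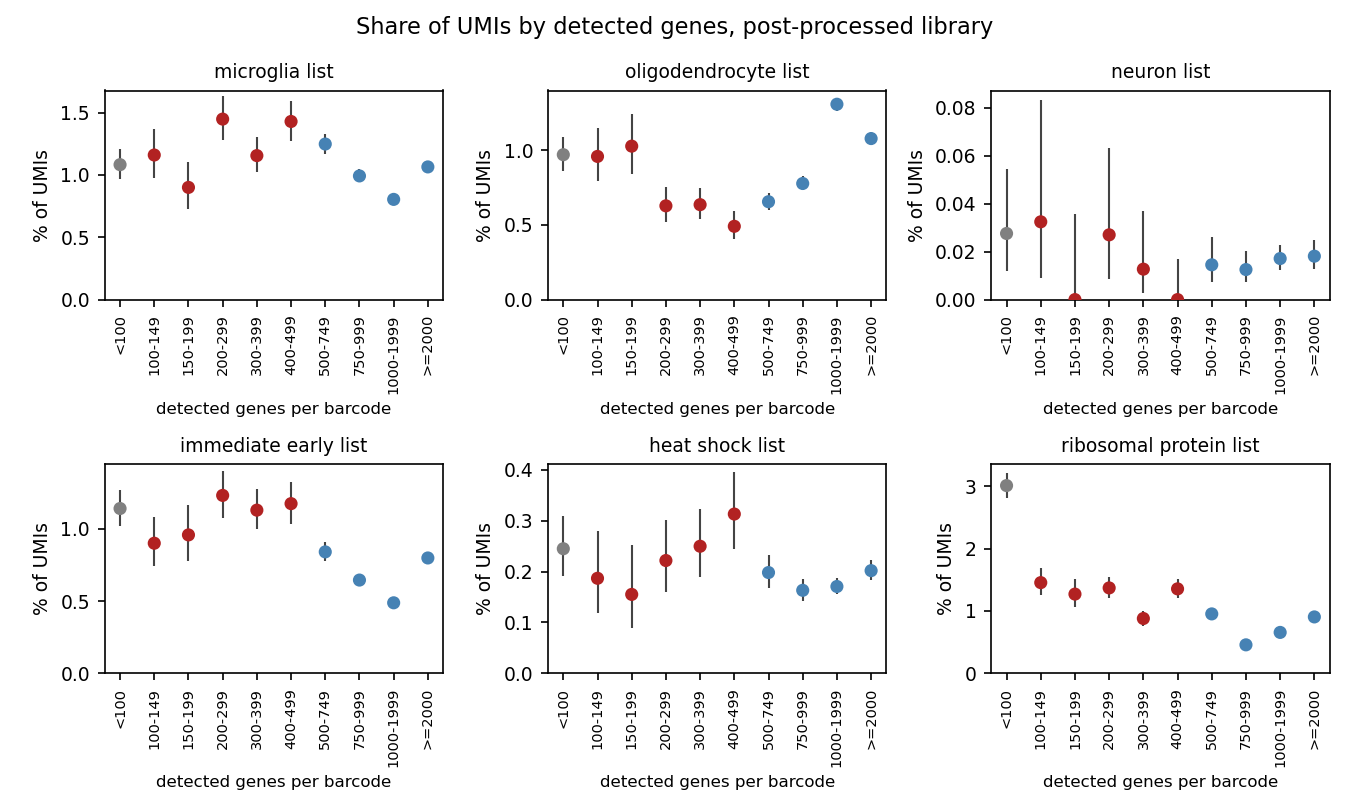
Points give the percent of UMIs from 6 gene lists in post-processed barcodes grouped by detected genes on the x axis, with exact 95% Poisson intervals. Grey, red and blue mark barcodes under 100, from 100 to under 500 and at least 500 genes, and the immediate early list runs from 1.23% at 200 to 299 genes to 0.488% at 1000 to 1999 genes.

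Heat shock genes took 208 UMIs, 0.240% (0.208 to 0.274%) against 0.181%, a log2 ratio of 0.40 (0.18 to 0.61). All 6 listed genes could be compared and 0 were 2-fold higher or lower, against 6.27% and 3.62% of all genes. With 6 genes, a count of 0 is near those shares. DNAJB1, a co-chaperone induced by heat, had 87 UMIs in 60 shallow barcodes and 468 in 114 deep ones, with a log2 ratio of 0.55 (0.19 to 0.87). HSPA5, the chaperone of the endoplasmic reticulum, stood at 0.77 (0.08 to 1.37), while the co-chaperone gene DNAJA1 stood at -0.59 (-1.41 to 0.07) and DNAJB4 at -0.61 (-1.71 to 0.21). The 2 co-chaperones with a negative ratio had 18 and 11 UMIs in the shallow barcodes.

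Inflammatory genes took 214 UMIs, 0.247% against 0.194%, a log2 ratio of 0.35 (0.13 to 0.55), and of 6 compared 1, TAGAP at 1.07 (0.23 to 1.79), was 2-fold higher, against 6.27% of all genes. The cytokine gene IL1A had 43 and 375 UMIs and a ratio of -0.14 (-0.65 to 0.30), and the inflammasome gene NLRP3 stood at 0.11 (-0.45 to 0.60). NFKBIZ stood at 0.53 and PLEK at 0.40, with intervals that included 0. Genes of haem and oxidative stress took 39 UMIs, of which HMOX1, the enzyme that breaks down haem, gave 28 at a ratio of 0.64 (-0.02 to 1.22). Of its 28 UMIs 8 lay in 1 barcode, and its ratio without the richest barcode of each set was 0.33. The unfolded protein list gave 41 UMIs, 35 of them of ATF4, at 0.72 (0.13 to 1.24). DDIT3 of the same list, a cell death factor of the stress response, had 0 UMIs in the shallow and 3 in the deep barcodes, too few to compare. The cell death list gave 24 UMIs, at 0.0276% against 0.0289%.

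The mix of cell types differed between the summed sets, so the stress lists were also compared within a leading list. In 142 microglia-led shallow barcodes immediate early genes took 1.35% of 54262 UMIs, against 1.04% of 312169 in 125 microglia-led deep ones, a log2 ratio of 0.39 (0.27 to 0.50). Of 11 compared, 1 was 2-fold higher and 0 lower, where 6.39% of 2081 genes were higher and 3.17% lower, and their median of 0.33 stood beside a median of 0.10 over all genes. The heat shock list, at 0.269% against 0.268%, had a log2 ratio of 0.01 (-0.26 to 0.26), and the inflammatory list -0.19 (-0.44 to 0.05). The microglia list itself stood at 0.06 (-0.05 to 0.16), but it also chose these barcodes, so its ratio is no check that cell type was matched. Within microglia-led barcodes the immediate early difference was thus smaller than in the sums, and the heat shock difference was within counting error of 0. Endothelial markers stood out in the same comparison, at 0.101% against 0.0378% and a log2 ratio of 1.43 (0.93 to 1.90).

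In 61 oligodendrocyte-led shallow barcodes, with 18681 UMIs, immediate early genes took 0.450% (0.359 to 0.557%), where microglia-led ones had 1.35%. Against 0.310% in 76 oligodendrocyte-led deep barcodes the log2 ratio was 0.55 (0.20 to 0.86), and 4 of 11 genes were 2-fold higher and 1 lower. In that comparison 25.5% of 2008 genes were 2-fold higher and 5.78% lower, with a median log2 of 0.35, so ratios past 2-fold were common among genes at large at this depth. Heat shock genes took 0.193% against 0.114%, a ratio of 0.78 (0.22 to 1.26), on 36 UMIs. The oligodendrocyte list itself stood at 2.04% in both. These barcodes were chosen by that list, so its share is no check that cell type was matched.

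Ribosomal protein genes had a ratio as large as that of the immediate early genes. They took 1068 UMIs, 1.23% (1.16 to 1.31%) against 0.721%, a log2 ratio of 0.77 (0.67 to 0.87), and of 29 compared 6 were 2-fold higher and 0 lower, against 6.27% and 3.62% of all genes, with a median of 0.82. RPL11 had 53 UMIs in 40 shallow barcodes and 204 in 85 deep ones, 611 against 301 CPM, and stood at 1.03 (0.56 to 1.46), RPL36 at 1.20 (0.51 to 1.81) and RPL34 at -0.16 (-0.96 to 0.49). Within microglia-led barcodes the list stood at 1.21% against 0.880%, a ratio of 0.47 (0.34 to 0.59), with 1 of 30 genes 2-fold higher, against 6.39% of all genes. Ribosomal protein transcripts are abundant in the cytoplasm, and their genes have many processed copies in mammalian genomes, so the counts of single genes are uncertain. Genes of the respiratory chain encoded in the nucleus stood at 0.261% against 0.191%, a ratio of 0.46 (0.24 to 0.66), led by NDUFA13 at 1.21 (0.54 to 1.80).

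Among all genes compared, the highest ratios rested on few UMIs. After THBS1 came TAFA2 at 3.64 (2.59 to 4.78) and VCAN at 2.47 (1.53 to 3.36), and without the richest barcode of each set these were 0.03 and 0.78. NMD3, an export factor of the large ribosomal subunit, had 18 UMIs in 12 barcodes and stood at 2.45 (1.48 to 3.36). VPS28, CLSTN3, LYL1, RALA and ARRDC1 had 15 to 18 UMIs each and ratios from 1.74 to 1.99.

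The lowest ratio was that of the cation channel gene TRPM3, at -2.69 (-3.71 to -1.93), with 12 UMIs against 629. Of the 629, 563 lay in a single deep barcode, and without the richest barcode of each set the ratio was 0.30. PLA2R1, a phospholipase receptor, had 17 UMIs in 13 shallow barcodes and 596 in 93 deep ones, and stood at -2.12 (-2.95 to -1.47), or -0.18 against microglia-led deep barcodes. SCHIP1, WASF1, HIBADH, KIF21A, NRIP1, CPEB2, YTHDC2 and SNAP91 had 3 to 6 UMIs each in the shallow barcodes and ratios from -2.07 to -1.73. Of the 116 UMIs of SNAP91 in the deep barcodes 44 lay in 1.

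**Figure D5:**
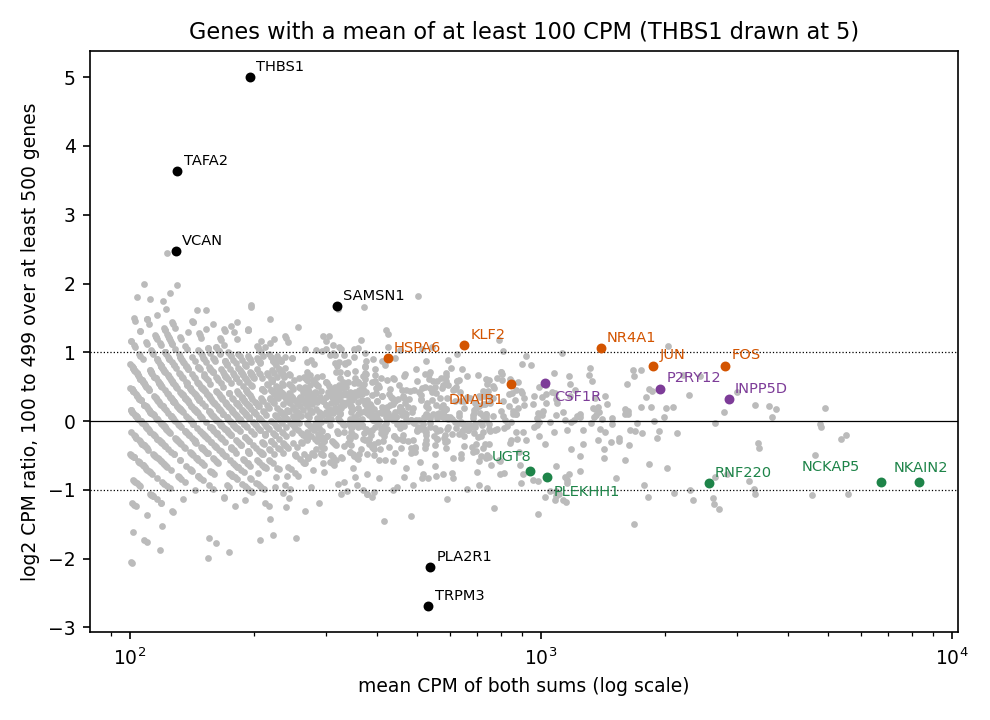
Each point is 1 of the 2153 genes with a mean of at least 100 CPM, with that mean on a log x axis and the log2 CPM ratio of shallow over deep barcodes on the y axis. Dotted lines mark a 2-fold difference, and orange, purple, green and black mark stress genes, microglial genes, oligodendrocyte-linked genes and others named in the text, with THBS1, at 0 in the deep barcodes, drawn at 5.

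The genes with most UMIs in the shallow barcodes were NKAIN2, KCNQ5, TMCC3, QKI, NCKAP5, ELMO1, DOCK4, ARHGAP24, MEF2C and ZBTB20, with 506 down to 334 UMIs. NKAIN2, at 5829 against 10779.8 CPM, had a log2 ratio of -0.89 (-1.02 to -0.76), and NCKAP5 -0.88 (-1.03 to -0.74). The potassium channel gene KCNQ5 stood at 0.19 (0.04 to 0.33), and the transcription factor gene MEF2C at 0.22 (0.04 to 0.38). QKI, an RNA-binding protein, stood at -0.26 (-0.41 to -0.12), and ELMO1 and DOCK4 at -0.04 and -0.08. All 10 were within 2-fold of the deep barcodes.

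The shallow barcodes were not uniform across their range. Microglia markers took 1.16% of UMIs at 100 to 149 genes, in 83 barcodes, 0.900% at 150 to 199 and 1.43% at 400 to under 500, in 33 barcodes. Oligodendrocyte markers took 0.958%, 1.03% and 0.490% in the same bins, so the poorest shallow barcodes held both in nearly equal amounts. Immediate early genes took 0.901% at 100 to 149 genes, 1.23% at 200 to 299 and 1.18% at 400 to under 500. Above the limit they took 0.841% at 500 to 749 genes, 0.645% at 750 to 999 and 0.488% at 1000 to 1999. The 19 barcodes with at least 2000 genes broke that order, at 0.798%. Heat shock genes took 0.187% at 100 to 149 genes, 0.155% at 150 to 199 and 0.313% (0.244 to 0.396%) at 400 to under 500, the highest of the 10 bins.

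Barcodes under 100 genes were compared with the shallow ones on the other side. Immediate early genes took 1.14% there, a log2 ratio of shallow over these barcodes of -0.04 (-0.22 to 0.14), with 0 of 11 genes 2-fold higher or lower, where 8.85% of 2249 genes were higher and 16.5% lower. Heat shock genes likewise had a ratio of -0.04 (-0.43 to 0.38). Microglia markers stood at 0.21 (0.03 to 0.40) and oligodendrocyte markers at -0.49 (-0.70 to -0.28). Inflammatory genes stood at 0.72 (0.26 to 1.24), on 43 UMIs under 100 genes. Ribosomal protein genes took 3.01% under 100 genes, a ratio of -1.29 (-1.42 to -1.16) with 22 of 31 genes 2-fold lower in the shallow barcodes, and respiratory chain genes had 10 of 13 lower. The shallow barcodes thus lay between the poorest and the deep barcodes in their ribosomal share, at 3.01%, 1.23% and 0.721%.

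Across genes, the shallow RNA was about as like that of microglia-led deep barcodes as that of all deep barcodes. With each sum thinned to 18681 UMIs, Spearman's rho across 2153 genes was 0.639 between shallow and deep barcodes, 0.629 between shallow and microglia-led deep barcodes, and 0.626 with barcodes under 100 genes. It was 0.501 with oligodendrocyte-led deep barcodes and 0.303 with the pre-processed library. For scale, the shallow sum had a rho of 0.689 with its own microglia-led part, whose barcodes it includes. Counting noise at this depth lowers all these values, by an amount that was not tested. Microglia-led shallow barcodes had a rho of 0.679 with microglia-led deep ones and 0.378 with oligodendrocyte-led deep ones. Oligodendrocyte-led shallow barcodes had 0.659 with oligodendrocyte-led deep ones and 0.443 with microglia-led deep ones. These are descriptions across genes, which are not independent replicates, and the sums share 1 library, so no p-value is given.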

How the data were processed

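The deposited matrices are whole-number UMI counts, not normalized, per the file headers. DRAGEN is named in the submitters' processing notes and Seurat in the series description. Not given in the sources used here are DRAGEN's version, the genome build and how nuclei were called, and coordinates are left out. RefSeq's gene table for ARS-UI_Ramb_v3.0 held all 12652 symbols of the 13765 features, which cover 9847 of 21300 protein-coding genes. No barcode was dropped and none was called a doublet.

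UMIs were summed over barcodes from 100 to under 500 genes and over those with at least 500, and scaled to 1000000. Ratios used 0.5 added counts and genes with a mean of 100 CPM over both sums, and a 2-fold ratio was counted. Intervals are exact at 95% (Poisson for sums, conditional binomial for ratios, Clopper-Pearson for shares), and cover counting error only. A fold against 0 was taken against a floor of 3 counts. Thinning used fixed seeds. The statistics were tested on simulated data. The members, marker lists and comparisons were chosen with earlier results of these data known. The text names the 6 proposed genes, the 10 with most UMIs, the 10 highest and 10 lowest ratios, and up to 5 genes per list with most UMIs, with others said to be named after their values were seen. Some genes that this rule names are not reported here. C1QA, C1QB, C1QC, P2RY13, TF, LPAR1, CERCAM, HAPLN2, ERMN, CLDN11, NR4A2, NR4A3, EGR3, DNAJB4, RPL34, RPL36 and the genes of single barcodes were also named after their values were seen. Python 3.11.15, NumPy 2.4.6, SciPy 1.17.1 and pandas 2.3.3 were used.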

Additional observations from a re-analysis of the deposited data

How the results depend on the processing

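All values here are log2 ratios unless given as counts or percent, and the cause of each shift was not tested. Of the alternatives run on the 7 main results, 56 gave values close to those reported, 21 moved and 3 reversed. The alternative without barcodes shared by the libraries left out 0 barcodes. Its values could not differ, so they are no test of stability, although they count as close. Genes 2-fold higher (135) and lower (78) became 85 and 124 with the median of gene ratios as scale, 41 and 45 with a minimum of 200 CPM, and 2428 and 657 with none. The lower count was 124 with the deep sum thinned to the shallow total and 46 against microglia-led deep barcodes, a comparator chosen on the microglia list itself. That comparator turned the microglia ratio to -0.39, the oligodendrocyte ratio to 1.09 and the heat shock ratio to -0.16, and left 0.10 for the immediate early list. With both sets led by the microglia list, added after the data were seen, immediate early and heat shock ratios were 0.39 and 0.011. With barcodes weighed equally the microglia, oligodendrocyte and immediate early ratios were 0.18, -0.14 and 0.61, and with the median scale 0.24, -0.76 and 0.63. The oligodendrocyte ratio was -0.48 with members under 400 genes and -0.81 against at least 1000 genes. The microglia-led share was 60.1% from 150 genes up and 27.4% at 100 UMIs. TRPM3 reversed to 1.06 and SNAP91 to 0.37 against microglia-led deep barcodes, and TAFA2 to -0.18 without the THBS1-rich and T and NK-rich barcodes. No paired analysis was possible because each group has 1 library. Depth limits genes under about 15 UMIs in the shallow barcodes.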
